A study of Mus musculus with 8 samples.

Results

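The transcripts described here are those encoded by the mitochondrial genome of mouse CD4+ effector T cells. They were taken as every row of the raw count table whose symbol begins with mt-, which gave 37 of 37411 rows: 2 ribosomal RNAs (rRNAs), 13 protein-coding transcripts and 22 transfer RNAs (tRNAs). Counts were found in 21 of the 37 rows. The other 16 rows, 4 protein-coding and 12 tRNA, had 0 counts in every library. A filter on low counts left 14 members for testing: mt-Rnr1, mt-Rnr2, mt-Nd1 to mt-Nd6, mt-Co1, mt-Cytb, mt-Tp, mt-Tc, mt-Te and mt-Tn.

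By retrovirus the cells had received either shMdr1, a short hairpin directed at the multidrug transporter Mdr1, or shCD8, the control hairpin. They were then given to C57BL/6 mice that were all Rag1-/-, and so could not form lymphocytes with rearranged receptors. These hosts were either Asbt+/+ or Asbt-/-, that is, with or without Slc10a2, which brings bile acids into cells of the ileum. At 6 weeks after transfer about 10000 cells per sample were sorted from small intestine lamina propria or from spleen, and 1 library was made for each of the 8 combinations. The hairpin was read from the sample titles, since the retrovirus label names shMdr1 for every library, and host ages are not stated. Whether animals were separate or pooled is not stated either, so the p-values reflect only how far these libraries varied, part of which may be technical.

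Mitochondrial DNA is a small circle that is read from both strands into long precursors, which are then cut apart, largely at the tRNAs that lie between the other genes. It encodes the 2 rRNAs of the mitochondrial ribosome, the tRNAs that this ribosome uses, and 13 core subunits of the respiratory chain. These are the Nd proteins of complex I, which takes electrons from NADH, Cytb of complex III, the Co proteins of complex IV, which passes electrons to oxygen, and the Atp proteins of complex V, which makes ATP. Everything else the organelle needs, including its RNA polymerase and ribosomal proteins, comes from nuclear genes. Activated T cells are known to expand their mitochondria and to raise mitochondrial translation. The library kit primes cDNA on poly(A) tails, so a value here counts tailed or internally primed RNA and does not measure all RNA of a gene.

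The protein-coding genes fell into well-counted ones and those with almost no counts, and the sequences of the latter, mt-Atp8 excepted, were also found in nuclear transcripts. The pair below shows the first 90 bases of mt-Atp6, a complex V subunit with 0 counts, and of Gm10925, a nuclear pseudogene, with no base different. The pair after it shows mt-Nd3, a complex I subunit with 100 counts in all 8 libraries, and its nuclear copy Gm28438. They differ in 1 of 345 bases compared, marked by the capital letter, which is T3C with the member's base first and positions counted from its first base. All sequences in this account are from the GENCODE vM21 transcripts (GRCm38), where all 37 names were found, and run 5′ to 3′.
mt-Atp6: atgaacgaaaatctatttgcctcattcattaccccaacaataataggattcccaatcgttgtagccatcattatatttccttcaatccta
Gm10925: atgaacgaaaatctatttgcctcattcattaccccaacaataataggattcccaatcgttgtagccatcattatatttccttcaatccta
mt-Nd3: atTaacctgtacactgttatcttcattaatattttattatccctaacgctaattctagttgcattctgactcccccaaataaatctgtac
Gm28438: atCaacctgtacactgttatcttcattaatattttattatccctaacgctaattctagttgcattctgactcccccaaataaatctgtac

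The same held for 5 of the 6 protein-coding genes from mt-Co2 to mt-Nd4l. For each member, every window of 50 bases was looked up letter for letter in all nuclear transcripts. In mt-Co2, mt-Atp6, mt-Co3, mt-Nd3 and mt-Nd4l, 98.0 to 100% of the windows occurred in a nuclear transcript. These 5 rows held 101 counts in the 8 libraries together, 100 of them in mt-Nd3 and 1 in mt-Co2. The other 10 protein-coding and rRNA rows shared 0 to 62.2% of their windows and held 2052156 counts. The copies were Gm28661 for mt-Co2 (681 bases, 0 differences), Gm28437 for mt-Co3 (783 bases, 0 differences) and Gm10222 for mt-Nd4l (294 bases, 0 differences). None of these copies, nor Gm10925 and Gm28438, had a row under its name in the raw counts. The rule by which reads matching more than 1 place were counted is not stated. Its part in the counts was not tested.

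mt-Nd4, a complex I subunit, lay partly inside such a copy: 62.2% of its windows were shared, and Gm28439 matched it over 876 bases with 0 differences, but it held 170911 counts. mt-Co1, the catalytic core of complex IV, shared 51.1% of its windows, with 98.8% identity to Gm29216 over 492 bases, and held 183603 counts. mt-Atp8 was the exception, with 0 counts but none of its 50-base windows in an annotated nuclear transcript. Nuclear sequence outside annotated transcripts was not searched, so a copy of mt-Atp8 there would not have been found. mt-Atp8 is 204 bases long. Its last 43 bases are also the first bases of mt-Atp6 (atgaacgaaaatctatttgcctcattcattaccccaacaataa), so that a read there falls in both rows. Whether such a read was counted in either row is not stated. A count of 0 allows a level of up to 1.08 to 1.78 CPM (a count scaled to the library total) depending on the library, from counting error alone. The values of complex V, with no counts, and of complex IV, which rested on mt-Co1 alone, therefore do not describe those complexes as a whole.

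**Figure D1:**
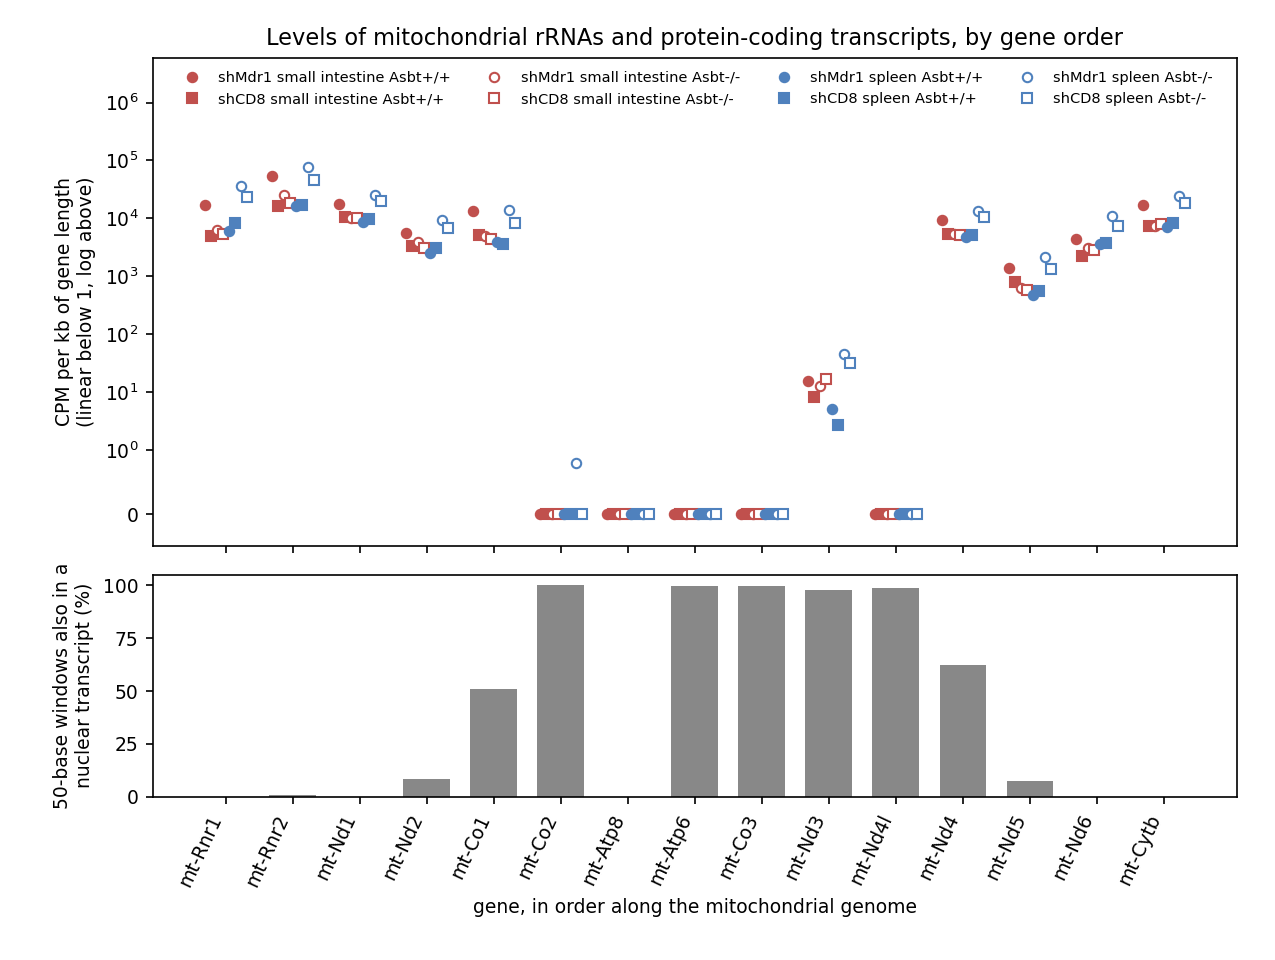
Upper panel, level of each rRNA and protein-coding member in CPM per kb of gene length (log axis, linear below 1), 1 point per library, in the order of the genes along the mitochondrial genome. Lower panel, percent of each member's 50-base windows found in a nuclear transcript: the members from mt-Co2 to mt-Nd4l that are at or near 0 reach 98.0 to 100%, except mt-Atp8 at 0%.

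Some of the messenger RNAs end in a way that the sequences show. In 3 of the 13 protein-coding members (mt-Co3, mt-Nd4 and mt-Cytb) the length is not a multiple of 3 and the annotated sequence ends on a single T. Their stop codon is known to be completed only when the poly(A) tail is added. The last 30 bases of mt-Cytb, the complex III subunit, and of mt-Nd4 are shown with this T in capitals, beside those of mt-Co1, where the capitals mark a full stop codon.
mt-Cytb: tcgaagacaaaatactaaaattatatccaT
mt-Nd4: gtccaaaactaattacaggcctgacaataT
mt-Co1: gaggaaccaacctatgtaaaagtaaaaTAA

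The mitochondrial share of all counts ranged from 6.63 to 26.8% over the libraries. In small intestine of Asbt+/+ hosts it was 18.3% with shMdr1 (exact binomial 95% interval 18.3 to 18.4%) and 7.06% with shCD8, and in that of Asbt-/- hosts 8.62 and 7.27%. In spleen of Asbt+/+ hosts it was 6.63% with shMdr1 and 7.33% with shCD8, and in that of Asbt-/- hosts 26.8% (26.7 to 26.8%) and 17.6% (17.5 to 17.7%). Thus 3 libraries stood high, 1 from small intestine of an Asbt+/+ host and both from spleen of Asbt-/- hosts, and the other 5 lay between 6.63 and 8.62%. The high values crossed every factor, and the levels of tissue, hairpin and host all overlapped. In spleen, the Asbt-/- libraries lay above the Asbt+/+ libraries with either hairpin. The intervals cover counting error only, since reads were amplified without molecular identifiers. In bulk samples such as these, fewer cells of a type and less RNA per cell cannot be told apart.

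The rRNA and protein-coding classes shared the mitochondrial counts about evenly, and tRNAs took almost nothing. rRNA took 3.08 to 15.6% of all counts and protein-coding transcripts 3.43 to 11.2%. Of the mitochondrial counts, rRNA made up 56.0% in shMdr1 Asbt+/+, 43.6% in shCD8 Asbt+/+, 53.6% in shMdr1 Asbt-/- and 46.8% in shCD8 Asbt-/- of small intestine. In spleen it made up 48.2%, 48.4%, 58.2% and 54.5% in the same order. The 3 libraries with a high mitochondrial share were also the 3 with the highest rRNA part, followed by shMdr1 Asbt-/- of small intestine. Accordingly the ratio of rRNA to protein-coding counts was 1.27 in shMdr1 small intestine Asbt+/+, 1.40 in shMdr1 spleen Asbt-/- and 1.20 in shCD8 spleen Asbt-/-, and 0.775 to 1.16 in the other 5.

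**Figure D2:**
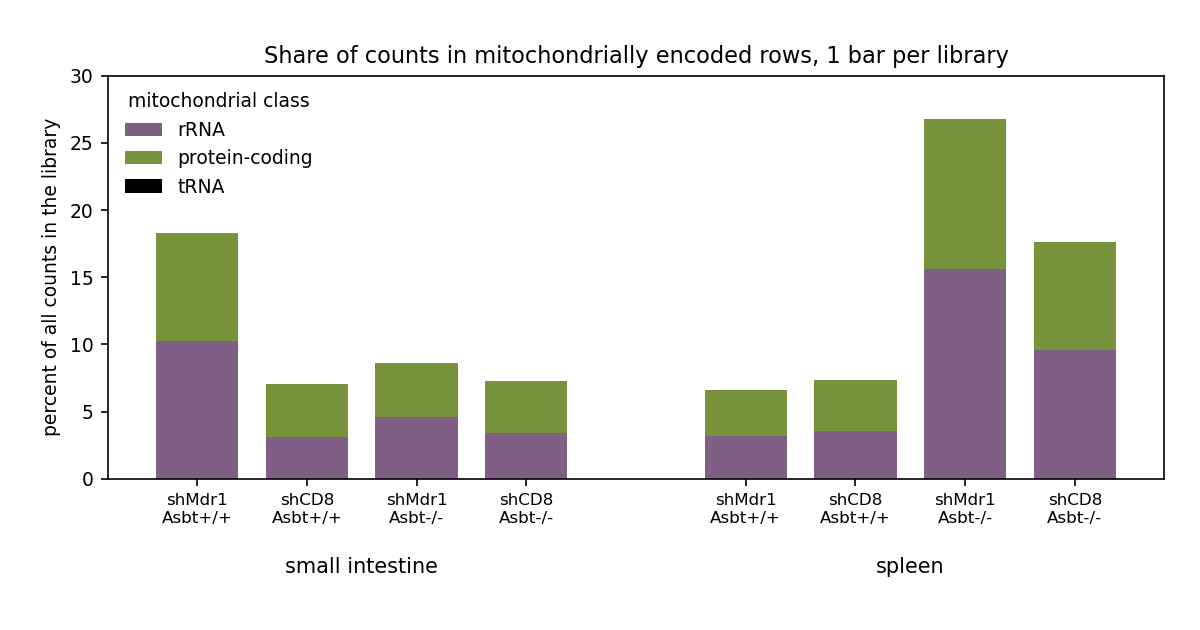
Percent of all counts in mitochondrially encoded rows, 1 bar per library, split into rRNA and protein-coding counts. The tRNA part (0.0036 to 0.022%) is too small to see; the 3 bars of 18.3, 26.8 and 17.6% stand above the 5 bars of 6.63 to 8.62%.

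The 3 high libraries differed from the others in further measures that are not mitochondrial, given here as values. Rn18s-rs5, a row of cytoplasmic 18S rRNA sequence, took 1.64% of counts in shMdr1 small intestine Asbt+/+, 2.35% in shMdr1 spleen Asbt-/- and 1.60% in shCD8 spleen Asbt-/-, but 0.340 to 0.485% in the other 5. Mitochondrial counts per Rn18s-rs5 count were 11.2, 11.4 and 11.0 in those 3 libraries and 16.2 to 21.5 in the others, so relative to this rRNA the order was turned round. Malat1, a long non-coding RNA kept in the nucleus, stood at 1511, 1715 and 967 CPM in the 3 libraries and at 527 to 658 CPM in the others. Neat1, another nuclear RNA, did not separate them: it stood at 265, 189 and 186 CPM against 142 to 340 CPM. These 3 libraries also had the 3 lowest totals (1685225, 1821772 and 2100582 counts, against 2135056 to 2767105). The part of RNA quality, cytoplasmic rRNA carry-over and depth in the mitochondrial share was not tested.

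Markers of other cells also differed between libraries. Of 12 CD4 T cell markers all 12 had counts, summing to 6300 to 10351 CPM over all libraries and Cd4 itself stood at 107 to 245 CPM. Hemoglobin rows took 3.69% of counts in shMdr1 spleen Asbt-/-, the library with the highest mitochondrial share, but 0.109% in shCD8 spleen Asbt-/- and 0.012% in shMdr1 small intestine Asbt+/+, which were high as well. Without hemoglobin in the total, the shares of these 3 libraries were 27.8, 17.6 and 18.3%. All 9 erythroid markers of the table had counts, with sums of 40.8 to 134 CPM in small intestine and 1104 to 37157 CPM in spleen. Neutrophil markers (13 of 13 with counts) summed to 13.4 to 186 CPM in small intestine; in spleen they summed to 8272 and 7444 CPM in Asbt+/+ hosts (shMdr1, shCD8) and to 2731 and 871 CPM in Asbt-/- hosts. Intestinal epithelial markers (18 of 20, Apoa4 and Alpi at 0) summed to 61.8 to 666 CPM in small intestine, and in spleen to 233 and 73.1 CPM in Asbt+/+ and 37.9 and 22.4 CPM in Asbt-/- hosts. Macrophage and dendritic cell markers (15 of 15) summed to 566 to 1346 CPM in small intestine, and in spleen to 562 and 353 CPM in Asbt+/+ and 169 and 199 CPM in Asbt-/- hosts. These 3 lists were thus lower in both spleen libraries with a high mitochondrial share than in the other 2 spleen libraries. This did not hold in small intestine. There shMdr1 Asbt+/+, also high in mitochondrial share, had the highest neutrophil (186 CPM) and epithelial (666 CPM) sums. Its macrophage and dendritic cell sum (566 CPM) was the lowest of small intestine. CD8 T cell markers (2 of 2) had their highest sum in shMdr1 small intestine Asbt+/+, at 89.0 CPM against 0 to 26.5 CPM in the other 7 libraries. In that library the sum was Cd8a alone, and Cd8b1 had 0 counts. Markers of natural killer and innate lymphoid cells (7 of 8, Ncr1 at 0) summed to 293 to 603 CPM and stromal and endothelial markers (8 of 8) to 11.1 to 73.0 CPM over all libraries. The part of other cells in the mitochondrial share was not tested. Separately, shCD8 small intestine Asbt+/+ had counts in 8456 genes, against 11345 to 13184 in the other 7, but not a high mitochondrial share.

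**Figure D3:**
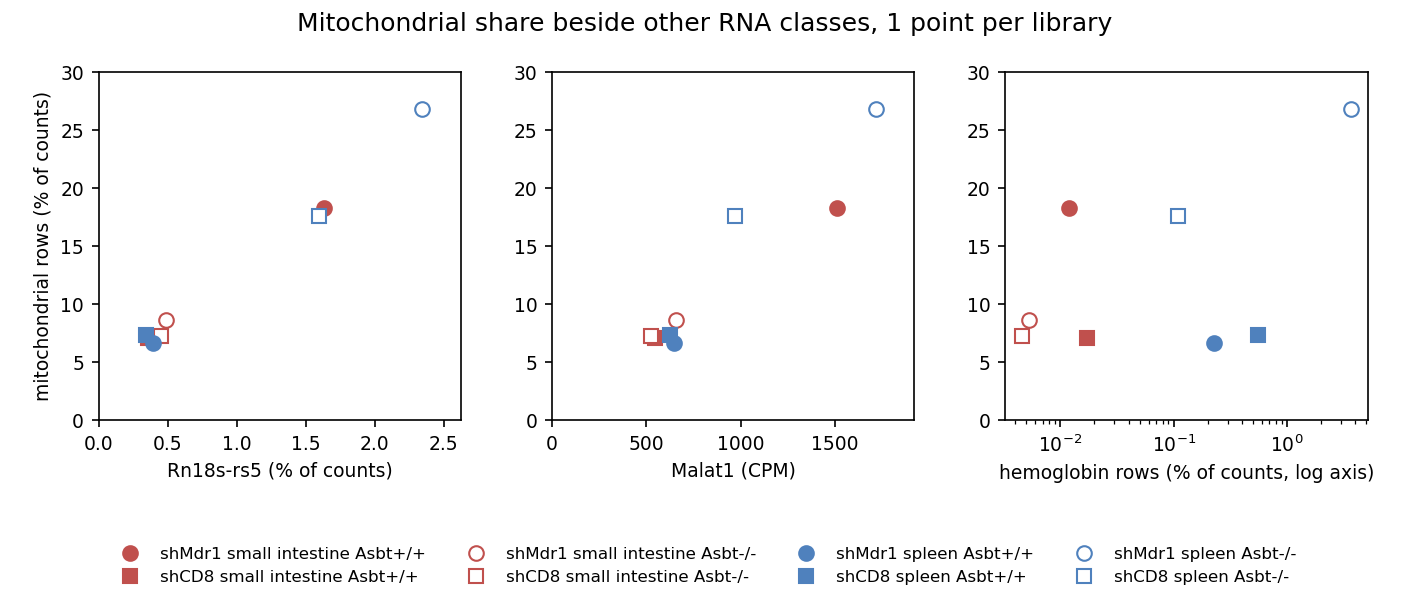
Mitochondrial share of counts against the Rn18s-rs5 share, the Malat1 level in CPM and the hemoglobin share (log axis), 1 point per library. The 3 libraries at 17.6 to 26.8% lie apart from the other 5 on the Rn18s-rs5 and Malat1 axes, and are mixed with them on the hemoglobin axis.

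Among the rRNAs, mt-Rnr2 (16S, the large ribosomal subunit) was the most abundant member in every library, with 36.9 to 47.1% of mitochondrial counts. Its levels were 86198, 26019, 40305 and 28838 CPM in small intestine (shMdr1 Asbt+/+, shCD8 Asbt+/+, shMdr1 Asbt-/-, shCD8 Asbt-/-, the order kept below) and 26223, 27429, 121554 and 73848 CPM in spleen. mt-Rnr1 (12S, the small subunit) stood at 16312, 4761, 5929 and 5199 CPM in small intestine and 5699, 8025, 34338 and 22094 CPM in spleen. For both the 3 highest libraries were those with the high mitochondrial share, led by shMdr1 spleen Asbt-/-.

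The complex I transcripts of the heavy strand ran in parallel. mt-Nd1, in the membrane arm, stood at 16931, 9914, 9528 and 9804 CPM in small intestine and 8152, 9338, 24483 and 18943 CPM in spleen. mt-Nd5, a proton-pumping subunit, was lower, at 2536, 1466, 1125 and 1068 CPM in small intestine and 878, 1030.4, 3989.5 and 2455 CPM in spleen. mt-Nd2 ranged from 2623 to 9899.7 CPM with a median of 3768, and mt-Nd4 from 6641 to 18471 CPM with a median of 7401. For each of these 4 the 3 highest libraries were again those with the high mitochondrial share. mt-Nd3 had 2 to 29 counts per library, too few to order the libraries.

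For complex IV and complex III the pattern was alike. mt-Co1 stood at 20681, 7920.5, 7729.7 and 6802 CPM in small intestine and 6042, 5672, 21848 and 12635 CPM in spleen. mt-Cytb stood at 19606, 8446, 8404 and 9118 CPM in small intestine and 8065, 9532, 27369 and 20829.9 CPM in spleen. As a part of the protein-coding counts, mt-Co1 made up 15.0 to 25.7% and mt-Cytb 21.0 to 26.1%.

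mt-Nd6, a complex I subunit, is the only protein-coding gene on the light strand of the mitochondrial genome. It too was highest in the libraries with the high mitochondrial share. It stood at 2238, 1149.8, 1615 and 1478 CPM in small intestine and at 1887, 1962, 5624 and 3782 CPM in spleen. It made up 2.78, 2.90, 4.04 and 3.83% of the protein-coding counts in small intestine and 5.50, 5.19, 5.04 and 4.73% in spleen. The tissues did not overlap in this share, which was not tested. How many shares of other members, or how many of all genes, separated the tissues was not counted. mt-Nd6 is therefore not set apart from them by this order. Its end faces the end of mt-Nd5 on the opposite strand, where both rows cover the 14 bases ttaatctcgagtaa (written on the strand of mt-Nd5). The kit does not mark strand, so reads of mt-Nd6 and of the RNA copied from the opposite strand cannot be told apart.

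Set on the scale of CPM per kb of gene length, the median levels over 8 libraries were in the order mt-Rnr2 21853, mt-Nd1 10302, mt-Cytb 8151, mt-Rnr1 7306, mt-Nd4 5371, mt-Co1 5065, mt-Nd6 3708, mt-Nd2 3629.9 and mt-Nd5 710.3. The ranges over libraries were wide, such as 4985 to 35956 for mt-Rnr1 and 8518 to 25583 for mt-Nd1. Neighbours in this order overlapped in their ranges, with the exception of mt-Nd2 (2527 to 9537) and mt-Nd5 (481 to 2187). All counts of a gene were also set per kb of its windows not shared with nuclear transcripts. On that scale mt-Nd4 (median 14743) stood above mt-Nd1 (10858) and mt-Co1 (10705) beside it. The scale takes shared stretches to have given no counts, which was not tested.

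The tRNAs held 1472 counts in all, and 1400 of these lay in tRNAs on the light strand, which are 8 of the 22. Counts were present in 6 of those 8 and in 4 of the 14 on the other strand. mt-Tp, the tRNA for proline, held 989 counts and mt-Tc, for cysteine, 243, followed by mt-Tn for asparagine with 75 and mt-Te for glutamate with 74. mt-Tl1 held 32, mt-Ti 22, and mt-Ta and mt-Tt 13 each, and 2 more held fewer than 10. The 4 that were tested, all on the light strand, are shown as annotated with the anticodon in capitals.
mt-Tp: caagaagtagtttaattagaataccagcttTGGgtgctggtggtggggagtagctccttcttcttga
mt-Tc: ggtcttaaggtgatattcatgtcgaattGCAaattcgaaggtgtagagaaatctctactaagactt
mt-Tn: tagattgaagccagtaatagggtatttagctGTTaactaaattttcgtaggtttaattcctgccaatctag
mt-Te: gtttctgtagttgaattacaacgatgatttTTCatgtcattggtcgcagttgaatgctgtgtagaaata

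These sequences are 66 to 71 bases long, and none of their 50-base windows occurred in a nuclear transcript. mt-Tp stood at 63.5, 60.0, 49.5 and 39.1 CPM in small intestine and at 35.5, 21.1, 135 and 64.7 CPM in spleen. It was highest in shMdr1 spleen Asbt-/-, and the tissues overlapped. Because strand is not marked, counts in a light-strand tRNA may hold RNA copied from the opposite strand, and they cannot be told apart. The number of protein-coding counts per tRNA count lay between 519 and 1063.

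Small intestine was set against spleen, a bile acid-exposed tissue against a lymphoid organ. No mitochondrial row passed the test. edgeR's quasi-likelihood test called 62 of 10000 genes (0.620%) at a Benjamini-Hochberg adjusted p under 0.05, and 0 of the 14 members. The members' median log2 fold change (small intestine over spleen) was -0.30, against -0.17 over all genes, and 3 of 14 were above 0. Leaving out 1 library moved this median between -0.83 (without shMdr1 spleen Asbt+/+, 0 of 14 above 0) and -0.02 (without shMdr1 small intestine Asbt-/-, 6 of 14 above 0), by over 1.5 times for each library but shCD8 small intestine Asbt+/+. mt-Nd6 had the lowest p (log2 fold change -0.89 ± 0.38 SE, unadjusted p = 0.0406, adjusted p = 0.569, edgeR), and it was the only member with an unadjusted p under 0.05. mt-Rnr1 stood at -0.96 ± 0.69 and mt-Rnr2 at -0.31 ± 0.71. DESeq2 and limma-voom also called 0 members. Tissue and cell isolation cannot be told apart in this design.

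The ratio of the 2 rRNAs, which are neighbours on the same precursor, separated the tissues. mt-Rnr2 counts per mt-Rnr1 count were 5.28, 5.47, 6.80 and 5.55 in small intestine and 4.60, 3.42, 3.54 and 3.34 in spleen. All 4 small intestine values lay above all 4 spleen values, and neither high nor low mitochondrial share broke this order. The difference of log2 ratios was 0.64 (SD 0.16 and 0.21, n = 4 each), with p = 0.0286 by a two-sided exact permutation test, the smallest p that 4 against 4 libraries allow. Adjusted over the 12 comparisons of 4 ratios with 3 factors it was 0.343, which does not pass.

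Of the other ratios none separated 2 levels of a factor. mt-Nd6 counts per mt-Nd5 count, light against heavy strand, were 0.883, 0.784, 1.44 and 1.38 in small intestine and 2.15, 1.90, 1.41 and 1.54 in spleen. They overlapped (log2 difference -0.67, exact permutation p = 0.0571, adjusted p = 0.343). Within Asbt+/+ hosts the 2 tissues lay far apart, at 0.784 to 0.883 and 1.90 to 2.15. Within Asbt-/- hosts they overlapped, at 1.38 to 1.44 and 1.41 to 1.54. mt-Rnr2 counts per mt-Co1 count were 3.28 to 5.21 in small intestine and 4.34 to 5.84 in spleen. Between hosts their log2 difference was 0.33 (Asbt-/- over Asbt+/+, exact permutation p = 0.0857, adjusted p = 0.343). mt-Cytb per mt-Nd1 stayed between 0.852 and 1.16 in all libraries, and the p of the remaining comparisons was 0.143 or higher by the same exact permutation test.

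**Figure D4:**
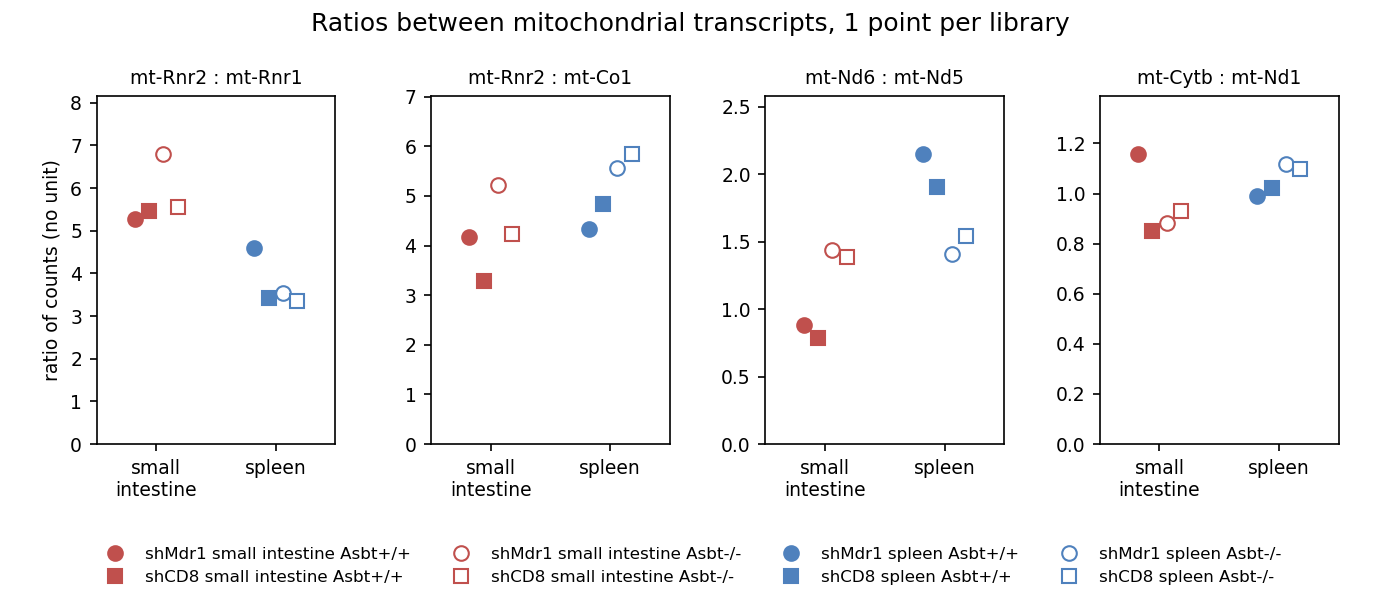
Ratio of counts between pairs of mitochondrial transcripts, 1 point per library, by tissue (all axes start at 0). For mt-Rnr2 to mt-Rnr1 the 4 small intestine libraries (5.28 to 6.80) lie above the 4 spleen libraries (3.34 to 4.60), and the other 3 ratios overlap between tissues.

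The hairpin comparison asks what less Mdr1 does to the transferred cells. With edgeR 0 of 14 members and 0 of 10000 genes (0%) passed; at an unadjusted p under 0.05 the numbers were 0 and 299. All 14 members were above 0 (shMdr1 over shCD8), with a median log2 fold change of 0.66 against 0.09 over all genes. mt-Rnr2 stood at 1.07 ± 0.66 (SE), mt-Rnr1 at 0.99 ± 0.62 and mt-Co1 at 0.96 ± 0.54, all with adjusted p = 0.999 (edgeR). Without shMdr1 small intestine Asbt+/+ the median fell to 0.12, against 0.05 over all genes, with 12 of 14 above 0, and without shMdr1 spleen Asbt-/- it was 0.22, against 0.15, with 13 of 14 above 0. Within tissues the medians were 0.68 in small intestine and 0.34 in spleen, with all 14 above 0 in each and none past the test (0% of genes called in each). DESeq2 and limma-voom called 0 members in these hairpin comparisons, and in the tissue by hairpin interaction edgeR called 0% of genes and 0 members.

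The host comparison asks how cells fare when bile acids are not taken up by the ileum. Over both tissues, edgeR called 0 of 14 members and 0 of 10000 genes (0%); at an unadjusted p under 0.05 they were 0 and 271. The members' median was 0.68 (Asbt-/- over Asbt+/+) against 0.11 over all genes, with all 14 above 0. Of the Asbt+/+ spleen libraries, leaving out shMdr1 gave 0.23 (12 of 14 above 0) and leaving out shCD8 gave 0.43. It was 0.37 without shMdr1 spleen Asbt-/- and 1.03 without shMdr1 small intestine Asbt+/+. mt-Rnr2 stood at 0.70 ± 0.70 (SE) and mt-Nd6 at 0.68 ± 0.38, both with adjusted p = 0.996 (edgeR). DESeq2 and limma-voom called 0 members here too.

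That average joined 2 tissues with opposite signs. In spleen all 14 members were higher in Asbt-/- hosts, with a median log2 fold change of 1.72, while the median of all genes was -0.03. mt-Rnr1 had a log2 fold change of 2.22 ± 0.56 (SE), mt-Rnr2 of 2.02 ± 0.55, mt-Nd5 of 1.91 ± 0.40, mt-Nd2 of 1.73 ± 0.39, mt-Co1 of 1.70 ± 0.47 and mt-Cytb of 1.64 ± 0.48. mt-Nd1 stood at 1.50 ± 0.43, mt-Nd6 at 1.46 ± 0.38 and mt-Nd4 at 1.43 ± 0.41. By unadjusted edgeR p under 0.05 there were 10 of 14 members and 102 of 10000 genes, but after adjustment over all genes 0% of genes and 0 members passed (adjusted p = 1 for every member). For the 2 rRNAs and for every protein-coding member with at least 1000 counts, both Asbt-/- libraries lay above both Asbt+/+ libraries. How many of all genes lay in this order was not counted, so the order does not set the members apart from other genes. Other tests of this host difference in spleen gave other numbers of calls than the edgeR fit. The DESeq2 Wald test, also fitted on all 8 libraries, called 17 of 10000 genes (0.170%). It gave an adjusted p to 4959 genes. Of the 17, 9 were members: mt-Rnr1, mt-Rnr2, mt-Nd1, mt-Nd2, mt-Nd4, mt-Nd5, mt-Nd6, mt-Co1 and mt-Cytb (DESeq2 adjusted p from 0.000964 to 0.0455). An edgeR fit of the spleen libraries alone, with 1 residual degree of freedom, called 149 of 9975 genes (1.49%), 10 members among them. limma-voom called 0.

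Beside this, Rn18s-rs5 had a larger host difference in spleen than any rRNA of the mitochondria (log2 fold change 2.60 ± 0.57, adjusted p = 1 with edgeR, 6.48e-05 with DESeq2, 1.28e-09 in the edgeR fit of spleen alone), and it headed the 17 genes of DESeq2. Malat1 stood at 1.22 ± 0.41 (adjusted p = 1, edgeR; 0.573 with DESeq2; 0.00368 in the fit of spleen alone) and Neat1 at 0.30 ± 0.31. The spleen libraries of Asbt-/- hosts thus had higher levels of Rn18s-rs5 and Malat1 along with the mitochondrial RNAs. Neat1 differed by no more than its SE, and Rpph1, another non-coding RNA, stood at -0.22 ± 1.31 (edgeR). The part of these RNAs in the host difference was not tested. Genes of other cells were also among the 17 and were lower in Asbt-/- hosts. S100a8, a neutrophil gene, stood at 5029 and 4602 CPM in Asbt+/+ and 1446 and 478 CPM in Asbt-/- spleen (DESeq2 log2 fold change -2.32, adjusted p = 0.0119). Reg3b and Reg3g, epithelial antimicrobial genes, stood at 38.7 and 26.2 and at 23.6 and 7.03 CPM in Asbt+/+ spleen and at 0 in both Asbt-/- libraries (adjusted p = 0.00114 and 0.0236, DESeq2). The CD4 T cell markers summed to 8672 and 8328 CPM in Asbt+/+ and 6300 and 6920 CPM in Asbt-/- spleen. The part of other cells in the host difference was not tested. The host difference in spleen was carried by 2 libraries per host. On total counts alone the median of all genes moved from -0.03 to -0.22 and that of the members from 1.72 to 1.52.

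In small intestine the same comparison gave a median of -0.41 for the members, against 0.36 over all genes, with 3 of 14 above 0. Here edgeR called 0% of genes and 0 members, and 0 members but 743 genes had an unadjusted p under 0.05; DESeq2 and limma-voom called 0 members. mt-Co1 stood at -0.81 ± 0.46 (SE) and mt-Nd5 at -0.81 ± 0.39 (adjusted p = 0.646 and 0.624, edgeR). Without either shMdr1 library, which leaves the shCD8 pair to give the host difference, the median was 0.04, against 0.61 over all genes, with 7 of 14 above 0. Without either shCD8 library it was -0.61, against 0.01 over all genes, with 2 of 14 above 0.

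The difference between the tissues was tested as an interaction (host effect in small intestine minus host effect in spleen). All 14 members were below 0, with a median of -2.30 against 0.46 over all genes. mt-Rnr1 stood at -2.88 ± 0.78 (SE), mt-Nd5 at -2.72 ± 0.56 and mt-Co1 at -2.51 ± 0.66, with adjusted p = 0.937 in each case (edgeR, 0% of genes called). By unadjusted edgeR p under 0.05 there were 10 members and 431 genes. DESeq2 called 21 of 10000 genes (0.210%) and gave an adjusted p to 7285. Of the 21, 6 were members: mt-Nd5, mt-Rnr1, mt-Co1, mt-Rnr2, mt-Nd2 and mt-Cytb. limma-voom called 0 members.

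**Figure D5:**
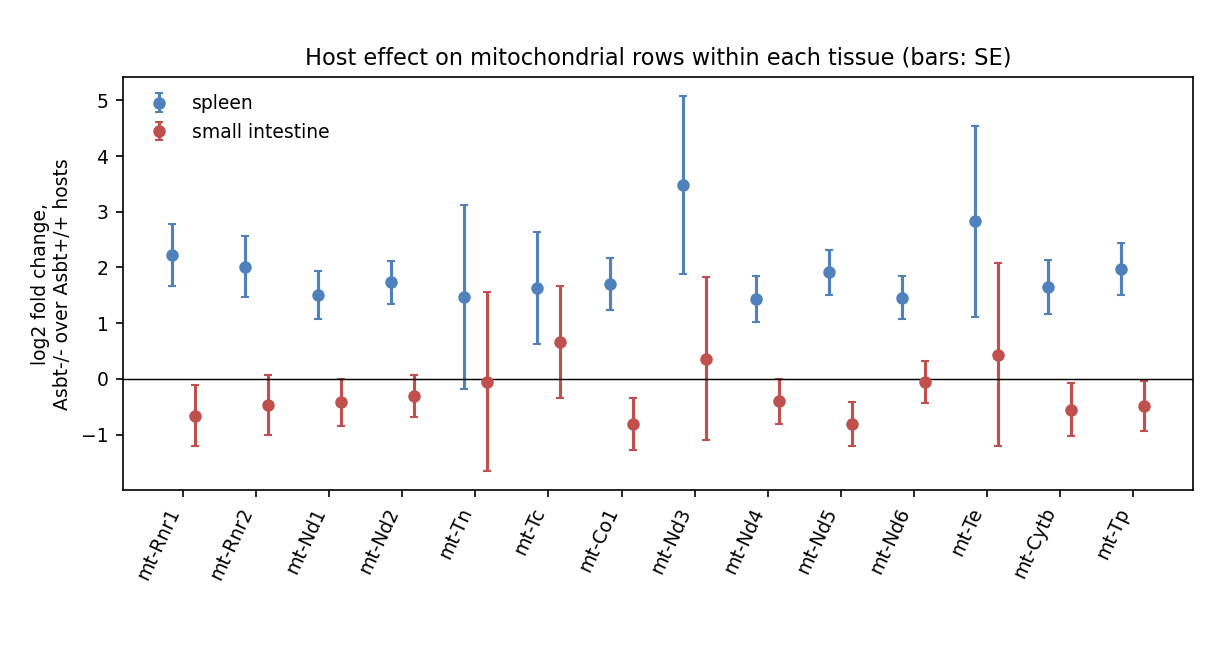
Log2 fold change of each tested member between Asbt-/- and Asbt+/+ hosts, within spleen and within small intestine; bars are the approximate SE of the edgeR fit. All 14 spleen values lie above 0 (1.43 to 3.48), and 11 of the 14 small intestine values lie below 0; no value passed the edgeR test.

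The nuclear genes that make, process and translate mitochondrial RNA were looked at beside the members, in 5 lists, and none of their tested genes passed the edgeR test in any comparison. These lists were 14 tested genes of mitochondrial transcription, 28 of RNA processing and decay, 13 of DNA maintenance, 28 translation factors and 75 mitochondrial ribosomal proteins. In the host comparison within spleen, where the members' median was 1.72, the medians of these lists were -0.09, 0.16, -0.44, 0.30 and -0.14. Tfam, which packages mitochondrial DNA and starts its transcription, stood at 49.8 and 63.2 CPM in spleen of Asbt+/+ hosts (shMdr1, shCD8) and 30.7 and 32.8 CPM in Asbt-/- hosts (log2 fold change -0.62 ± 0.79 SE, adjusted p = 1, edgeR). Slirp, which stabilises mitochondrial messenger RNAs, stood at 318 and 342 CPM against 144 and 266 CPM (-0.55 ± 0.32). In the same list, with 18 of 28 genes above 0, Pde12, which removes poly(A) tails from mitochondrial RNA, stood at 0.75 ± 0.56 and Rexo2, which degrades short RNAs, at 0.42 ± 0.34. Tk2, the mitochondrial thymidine kinase, stood at 0.88 ± 0.83, and Gatb, needed to charge the glutamine tRNA, at 1.64 ± 1.64. Slc25a4, the ADP/ATP carrier of heart and muscle, stood at -0.48 ± 0.32. Mrpl52, a protein of the large mitochondrial ribosomal subunit, stood at -0.62 ± 0.31.

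Lars2, the mitochondrial leucyl-tRNA synthetase, was 1 of the 28 tested translation factors, whose median for host in spleen was 0.30. Like Rn18s-rs5, it was highest in the libraries with the high mitochondrial share, for a reason that was not tested. It stood at 68.9 and 37.5 CPM in spleen of Asbt+/+ hosts and 379 and 112 CPM in Asbt-/- hosts. Its log2 fold change was 2.22 ± 0.58 (SE, adjusted p = 1 with edgeR, 0.0732 with DESeq2). The edgeR fit of spleen alone, with only 1 residual degree of freedom, gave it an adjusted p of 6.86e-13. In small intestine it stood at 153 CPM in shMdr1 Asbt+/+, where the mitochondrial share was 18.3%, and at 49.9 to 79.5 CPM in the other 3. Between tissues, the genes with the lowest p of their lists included Mrps6, of the small mitochondrial ribosomal subunit (1.10 ± 0.35, adjusted p = 0.340, edgeR), and Pde12 (-1.06 ± 0.43, adjusted p = 0.522). Tfam stood at -1.34 ± 0.61 (adjusted p = 0.593), with 7.03 to 40.8 CPM in small intestine and 30.7 to 63.2 CPM in spleen.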

How the data were processed

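The authors deposited raw read counts per gene in whole numbers, 1 column per library, for 8 mouse libraries. Per the labels' protocols a SMART-Seq v4 kit for very small inputs and a NEBNext kit were used. TopHat, HTSeq, DESeq2 and the build mm9 are named in the submitters' processing notes; of versions, annotation and strandedness nothing is stated. No coordinates are given, because the sequences used are of another build.

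Totals were 1685225 to 2767105 counts. edgeR 4.0.16 (R 4.3.3) kept 10000 genes with filterByExpr, used TMM factors, and adjusted p over all genes at 0.05. Tissue, hairpin and host were fitted additively on all 8 libraries, 4 per level; effects inside a tissue came from a model giving each tissue its own effects. The SE, approximate, is the size of the log2 fold change divided by the root of F. Ratios took a prior count of 0.5. The fits were run on simulated counts with the same spread for every gene. That run checked the code and does not show how well the fits do on these libraries. Alternatives were DESeq2 1.42.0, limma-voom (limma 3.58.1), other scalings, no filter, no covariates, 1 tissue alone, matched pairs and leaving out libraries.

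All members are accounted for; tRNAs with at least 10 counts are named, and of each nuclear list, genes among the 3 lowest p. The members, lists and tests were chosen with earlier results of these data known. Mrpl and Mrps symbols formed the ribosomal list. Nuclear copies were sought in GENCODE vM21 transcripts in windows of 50 bases. A further list of cell markers is not reported here.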

Additional observations from a re-analysis of the deposited data

Results flagged for a closer look

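In groups of 4 libraries sharing a level of tissue, hairpin or host, 15 of 186 sets of values had a highest or lowest library far from the other 3 (a gap that exceeds the 95% critical value of Dixon's test). Chance gives about 1 in 20, the sets overlap in their libraries, and the values are parts of the same totals. The mitochondrial share of shMdr1 small intestine Asbt+/+, 18.3%, stood apart among small intestine libraries (others 7.06 to 8.62%) and among Asbt+/+ libraries (6.63 to 7.33%). That of shCD8 spleen Asbt-/-, 17.6%, stood apart among shCD8 libraries (7.06 to 7.33%). The same libraries stood apart in the rRNA share, at 10.3% among Asbt+/+ and 9.59% among shCD8 libraries (3.08 to 3.55% for the others in both). They also did so in the protein-coding share, at 8.05% among small intestine and among Asbt+/+ libraries and 8.00% among shCD8 libraries.

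The tRNA share of shMdr1 spleen Asbt-/-, 0.0215%, stood above the other shMdr1 libraries (0.0059 to 0.0084%). shMdr1 spleen Asbt+/+ had 4.60 mt-Rnr2 counts per mt-Rnr1 count against 3.34 to 3.54 in the other spleen libraries. shMdr1 small intestine Asbt+/+ had 955 protein-coding counts per tRNA count against 519 to 580.2 in the other shMdr1 libraries. As a percent of mitochondrial counts, mt-Nd5 stood at 2.08% in shCD8 small intestine Asbt+/+, against 1.39 to 1.47% in the other shCD8 and 1.32 to 1.41% in the other Asbt+/+ libraries. In few counts, mt-Tl1 stood at 0.0023% in shCD8 small intestine Asbt-/- and mt-Ta at 0.0013% in shMdr1 spleen Asbt+/+.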

How the results depend on the processing

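The labels give no replicate numbers and do not say which libraries share an animal. A paired fit chosen after seeing the data, with the 4 pairs of libraries matched on the other 2 factors as a block, called 54 genes for tissue, 0 for hairpin and 0 for host, and 0 members in each. No member was called between tissues, hairpins or hosts over both tissues under any alternative run, leave-one-out included. The number of genes called did move. Without the filter it was 165 for tissue, 9 for hairpin and 14 for host; with DESeq2 it was 257, 4 and 4. With DESeq2 it was also 17 for host in spleen (9 members), 59 for host in small intestine, 21 for the host interaction (6 members), 3 and 26 for hairpin in spleen and small intestine, and 1 for the hairpin interaction. Fits of 1 tissue alone called 149 genes for host in spleen (10 members), 7 for host in small intestine, 81 for hairpin in spleen and 7 for hairpin in small intestine.

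Leaving out libraries gave 12 to 145 genes for tissue (in Asbt+/+ small intestine, 145 when shCD8 and 12 when shMdr1 was left out), 0 for hairpin and 0 to 4 for host. In the fits with separate effects, a tissue that loses a library is fitted exactly and the spread rests on the other tissue with 1 degree of freedom. These leave-one-out fits, chosen after seeing the data, gave 1 to 151 genes and 0 to 10 members for host in spleen, with 10 members without any 1 small intestine library and 0 without any 1 spleen library. They gave 6 to 4139 genes and 0 to 4 members for host in small intestine. For the interaction they gave 0 to 3290 genes and 0 to 10 members. In both comparisons the highest number of genes and the highest number of members came from different fits. The small intestine fit with 4139 genes called 0 members. The ends of these ranges therefore cannot be paired, and they do not set the members apart from other genes. All 14 spleen values stayed above 0.

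Signs turned for some members near 0. For tissue, mt-Co1 (0.0017) was -0.016 with DESeq2 size factors, -0.024 on total counts, -0.013 scaled by other rows, -0.0080 without the filter, -0.016 with DESeq2, -0.10 without covariates and -0.029 in the paired fit. mt-Nd3 was -0.36 with limma-voom and -0.72 without covariates, and mt-Tp -0.16 and -0.30. On total counts mt-Te in the hairpin comparison of spleen was -0.022 and mt-Tn in that of small intestine -0.14. Under leave-one-out, signs turned for tissue in mt-Co1 (-0.51 to 0.42), mt-Nd1 (-0.66 to 0.035), mt-Nd2 (-0.72 to 0.070), mt-Nd3 (-0.48 to 0.72), mt-Nd5 (-0.79 to 0.21), mt-Rnr2 (-0.87 to 0.10) and mt-Tp (-0.37 to 0.51). For hairpin they turned in mt-Cytb (-0.019 to 0.94), mt-Te (-0.17 to 0.80) and mt-Tn (-0.022 to 0.93), and for host in mt-Co1 (-0.072 to 0.92) and mt-Nd5 (-0.021 to 1.00). For host in small intestine they turned in mt-Cytb (-1.20 to 0.10), mt-Nd3 (-0.28 to 1.00), mt-Nd6 (-0.45 to 0.35), mt-Rnr1 (-1.44 to 0.12), mt-Rnr2 (-1.08 to 0.14), mt-Te (-0.28 to 1.16) and mt-Tn (-0.20 to 0.11). Among log2 ratios they turned for host in mt-Rnr2 to mt-Rnr1 (-0.19 to 0.15), mt-Nd6 to mt-Nd5 (-0.090 to 0.39) and mt-Cytb to mt-Nd1 (-0.072 to 0.075). For hairpin they turned in mt-Rnr2 to mt-Co1 (-0.043 to 0.23) and mt-Nd6 to mt-Nd5 (-0.19 to 0.29). The tissue difference of mt-Rnr2 to mt-Rnr1 stayed between 0.56 and 0.74. Without hemoglobin and Rn18s-rs5 rows in the total the mitochondrial shares were 18.6, 7.08, 8.67 and 7.30% in small intestine and 6.67, 7.40, 28.5 and 17.9% in spleen. The cause of these changes was not tested.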
